A study of Mus musculus with 10 samples.

Results

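The MHC class II and co-stimulation genes described here are the 10 of 35725 genes in the deposited count table whose symbol is H2-Aa, H2-Ab1, H2-Eb1, Cd74, H2-DMa, H2-DMb1, Ciita, Cd80, Cd86 or Cd40. They were chosen by name, and 10 of the 10 passed the low-count filter. RNA had been sequenced from FACS-sorted lung eosinophils of male mice, 5 libraries from P2ry14-null mice and 5 from wild-type C57BL/6J mice (WT). P2ry14 encodes a G protein-coupled receptor for UDP-sugars such as UDP-glucose, and the labels do not give the background strain of the null mice, their age or how the allele was made. Mice of both genotypes had gone through the same asthma model, in which ovalbumin (50 µg) with a protease of Aspergillus oryzae (20 µg) was given by oropharyngeal instillation on a pair of occasions a week apart, an aerosol of 1% ovalbumin followed 7 days after the later instillation, and cells were sorted 16 h after the aerosol. No unchallenged mice and no other lung cells were analysed here, so levels in eosinophils are given without a resting or purified comparison.

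MHC class II molecules carry peptides of engulfed proteins to the cell surface, where CD4+ T cells read them. An alpha and a beta chain, H2-Aa with H2-Ab1 for the I-A molecule, form the peptide groove, the invariant chain Cd74 holds that groove shut during transport, and the H2-DM heterodimer of H2-DMa and H2-DMb1 helps to exchange the last piece of Cd74 for peptide. Ciita is the transactivator that these genes share, and it works through factors bound to the X and Y boxes of their promoters. Cd80 and Cd86 give the second signal to T cells through CD28, and Cd40 receives help from T cells through CD40 ligand. Class II is made mainly by dendritic cells, B cells and macrophages, in mouse lung also by alveolar type II cells, and eosinophils of allergic airways have been described as carriers of class II and co-stimulatory proteins.

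Promoters of class II genes are known for X and Y boxes, and their letters were looked for here. RefSeq windows on GRCm38.p6 (the assembly behind mm10), 250 bases before to 50 after a transcript start, were at hand and used for 5 of the 10 genes. An X box core, written GNAACT, followed after 10 to 40 bases by the Y box core GATTGG stood in 3 of them on the gene's own strand, and the search covered both strands. The spelling was chosen after these promoters had been read, the cores do not overlap, and the same pair stood in 0.533% of the 27025 genes with such a window. GNAACT alone stood in 46.8% and GATTGG alone in 18.2% of them. The 4 windows below are shown because 3 belong to class II genes that moved together from library to library and the 4th, Cd80, to a gene that did not, with the cores of the ordered pair in capitals.
H2-Aa (chr17:34287774-34288073, minus strand): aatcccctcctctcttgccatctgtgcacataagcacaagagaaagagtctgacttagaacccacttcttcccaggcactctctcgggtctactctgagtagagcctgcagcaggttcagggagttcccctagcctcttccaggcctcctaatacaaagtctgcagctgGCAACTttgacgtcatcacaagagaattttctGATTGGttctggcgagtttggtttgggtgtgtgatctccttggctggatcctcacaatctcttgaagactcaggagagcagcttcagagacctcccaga
H2-Eb1 (chr17:34305617-34305916, plus strand): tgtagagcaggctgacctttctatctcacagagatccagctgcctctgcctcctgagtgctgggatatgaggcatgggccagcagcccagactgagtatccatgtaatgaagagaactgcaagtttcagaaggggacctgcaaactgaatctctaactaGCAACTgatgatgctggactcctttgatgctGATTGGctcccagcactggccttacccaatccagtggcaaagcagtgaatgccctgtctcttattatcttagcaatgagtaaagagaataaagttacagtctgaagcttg
H2-DMb1 (chr17:34152941-34153240, plus strand): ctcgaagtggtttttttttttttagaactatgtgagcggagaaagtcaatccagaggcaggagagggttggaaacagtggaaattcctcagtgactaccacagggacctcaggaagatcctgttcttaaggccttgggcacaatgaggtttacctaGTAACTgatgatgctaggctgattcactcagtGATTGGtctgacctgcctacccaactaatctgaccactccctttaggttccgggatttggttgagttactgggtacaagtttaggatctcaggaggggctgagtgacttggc
Cd80 (chr16:38458683-38458982, plus strand): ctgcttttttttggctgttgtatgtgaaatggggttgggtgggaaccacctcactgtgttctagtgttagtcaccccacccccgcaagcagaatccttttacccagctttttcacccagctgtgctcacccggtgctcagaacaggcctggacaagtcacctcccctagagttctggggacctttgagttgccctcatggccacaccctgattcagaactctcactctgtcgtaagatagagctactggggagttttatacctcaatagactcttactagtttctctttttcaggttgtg

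The X core began 81 bases before the start in H2-Aa, 91 in H2-Eb1 and 94 in H2-DMb1, and the Y core 49, 60 and 62 bases before it. The gap between the cores was 26, 25 and 26 bases. H2-DMa has a pair of RefSeq starts. On a search of both strands, the upstream window held neither core and the downstream window held both. Neither window held the X core followed by the Y core at the spacing searched, and other spacings were not tested. The Cd80 window held GNAACT on the opposite strand, not marked, and no GATTGG. That window lies inside the mm10 span of Cd80, which begins at chr16:38457431, so bases before that position were not searched. Among other genes of antigen presentation and co-stimulation, 2 of 52 with a window held the pair, H2-Eb2 and Icosl. A match is only a description of letters, and its absence says nothing of factor binding.

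Total counts ran from 67161968 to 185124080 reads per library. P2ry14 checked the labels: it averaged 23.2 ± 1.02 CPM (counts per 1000000 counted reads) in P2ry14-null and 211 ± 16.0 CPM in WT libraries (SD, n = 5 each). CPM values here are divided by library sizes scaled with TMM factors. The sorted cells carried the eosinophil markers Siglecf, Ccr3, Prg2 and Epx, and the summed CPM of 10 eosinophil markers was 9143 to 9790 in P2ry14-null and 9198 to 9663 in WT libraries. P2ry14-null library 2 stood apart: of 11140 genes with a mean of at least 1 CPM, 161 (1.45%) were at least 2-fold above the median of the other 4 libraries of its group, against 0 to 48 genes for any other library. Of the 9 genes of the class II and co-stimulation set in that count (Cd40 averaged below 1 CPM), 7 were among the 161. The fold changes below are therefore given with and without this library. Whether the libraries are from separate mice is not in the labels, so the p-values reflect only how far these samples spread, possibly for technical reasons. In bulk RNA fewer cells of a type and less RNA per cell cannot be told apart.

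**Figure D1:**
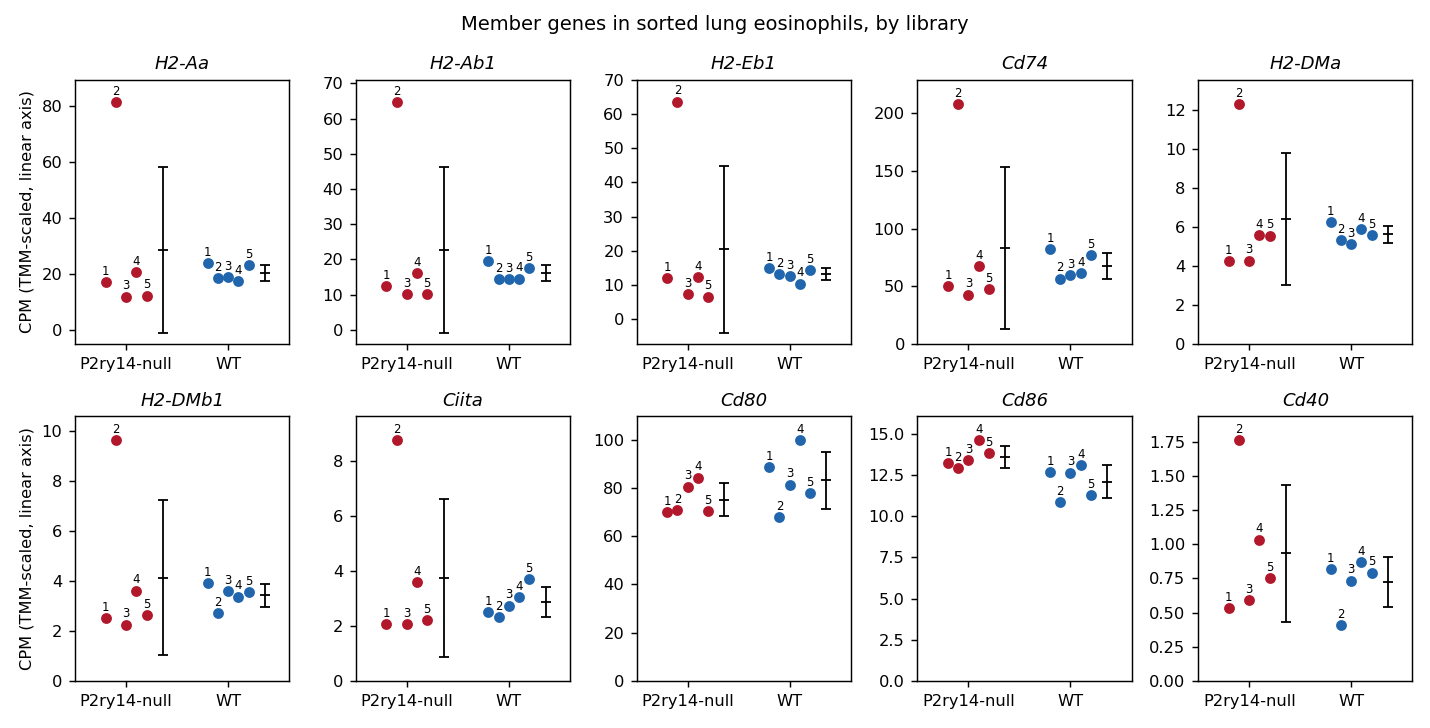
CPM of each of the 10 genes on linear axes; points are libraries with their replicate number (P2ry14-null red, left; WT blue, right), and the bar beside each group is the mean ± SD of 5 libraries. P2ry14-null library 2 is the highest point of 8 of the 10 panels, at 81.2 CPM for H2-Aa, and lies among the others for Cd80 and Cd86.

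None of the 10 genes passed the test between genotypes, in a design where a miss does not show that levels were alike. edgeR's quasi-likelihood test, adjusted by Benjamini-Hochberg over all 15586 genes tested with a threshold of 0.05, called 0 of the 10, where it called 6 genes (0.0385%) in all. At an unadjusted p under 0.05 there was 1 of the 10, Cd86, beside 644 genes (4.13%) of all tested, and DESeq2 gave the same count for the 6 of the 10 genes for which it returned a p. DESeq2 called 0 of those 6, where it called 0.116% of the genes it tested. The median log2 fold change (P2ry14-null minus WT) over the 10 genes was 0.34, beside 0.003 over all genes tested, and without P2ry14-null library 2 it was -0.26, beside -0.001. The groups overlapped in 10 of the 10 genes, where 0.648% of all tested genes did not overlap.

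The alpha and beta chains of I-A were well measured, with 845 to 12516 reads per library. H2-Aa (gene ID 14960, mm10 chr17:34282751-34287771, minus strand) stood at 17.0, 81.2, 11.8, 20.5 and 12.2 CPM in P2ry14-null libraries 1 to 5, against 23.7, 18.5, 18.9, 17.5 and 22.9 CPM in WT libraries 1 to 5. Its partner H2-Ab1 (gene ID 14961, chr17:34263227-34269418, plus strand) stood at 12.5, 64.6, 10.2, 16.1 and 10.2 CPM in P2ry14-null, against 19.5, 14.4, 14.5, 14.5 and 17.6 CPM in WT libraries. H2-Aa averaged 28.5 ± 29.7 CPM in P2ry14-null and 20.3 ± 2.83 CPM in WT libraries (SD, n = 5 each), and 15.4 ± 4.18 CPM in P2ry14-null without library 2 (SD, n = 4). For both chains P2ry14-null library 2 lay above every WT library, and libraries 1, 3 and 5 of that group lay below every WT library. H2-Aa had a log2 fold change of 0.50 ± 0.46 with all libraries (SE, adjusted p = 0.999 by edgeR) and -0.40 ± 0.15 (edgeR adjusted p = 1.00, unadjusted p = 0.0213) without library 2. That of H2-Ab1 was 0.50 ± 0.45 (edgeR adjusted p = 0.999) and -0.39 ± 0.14 (edgeR adjusted p = 1.00, unadjusted p = 0.0133). With the single library left out, the sign of both turned.

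H2-Eb1 (gene ID 14969, chr17:34305867-34316674, plus strand) encodes the beta chain of I-E, a class II molecule that mice of the H2b haplotype, C57BL/6 among them, do not assemble for want of its alpha chain. It stood at 12.1, 63.6, 7.46, 12.3 and 6.62 CPM in P2ry14-null, against 15.02, 13.2, 12.5, 10.5 and 14.5 CPM in WT libraries. Its pattern was that of the I-A chains, with library 2 of the P2ry14-null group far above and libraries 3 and 5 below every WT library. With all libraries H2-Eb1 had a log2 fold change of 0.64 ± 0.52 (SE, adjusted p = 0.999 by edgeR), and of -0.46 ± 0.17 (unadjusted p = 0.0206, adjusted p = 1.00 by edgeR) without library 2.

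Of the genes that serve peptide loading, the invariant chain was the most abundant. Cd74 (gene ID 16149, chr18:60803849-60812652, plus strand) stood at 50.4, 208, 42.9, 67.5 and 47.9 CPM in P2ry14-null, against 82.2, 56.7, 59.6, 61.5 and 77.2 CPM in WT libraries. Without library 2 the remaining P2ry14-null libraries averaged 52.2 ± 10.7 CPM (SD, n = 4) and WT 67.4 ± 11.5 CPM (SD, n = 5), with overlap. Its log2 fold change was 0.31 ± 0.37 with all libraries and -0.37 ± 0.13 without library 2 (unadjusted p = 0.0169; edgeR adjusted p 0.999 and 1.00).

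The H2-DM chains were low. H2-DMa (gene ID 14998, chr17:34122719-34139101, plus strand) stood at 4.25, 12.3, 4.27, 5.56 and 5.56 CPM in P2ry14-null, against 6.24, 5.33, 5.12, 5.87 and 5.56 CPM in WT libraries. H2-DMb1 (gene ID 14999, chr17:34153191-34160229, plus strand) stood at 2.52, 9.61, 2.26, 3.61 and 2.64 CPM in P2ry14-null, against 3.91, 2.70, 3.58, 3.37 and 3.54 CPM in WT libraries. In both, library 2 was again the highest of all 10, and the other P2ry14-null libraries overlapped WT. Log2 fold changes were 0.19 ± 0.25 for H2-DMa and 0.28 ± 0.34 for H2-DMb1, and -0.19 ± 0.10 and -0.31 ± 0.14 without library 2 (unadjusted p = 0.0917 and 0.0491; edgeR adjusted p 0.999 with and 1.00 without it). In GENCODE vM21, exons of H2-DMa share 360 bases with Brd2 on the opposite strand, and those of transcripts linked to RefSeq share 0. Whether the counting used strand is not given in the sources used here, so such reads cannot be told apart. Brd2 itself stood at 292 to 315 CPM in P2ry14-null and 302 to 345 CPM in WT libraries, with library 2 the lowest of its group. H2-DMb1 also has a close copy, H2-DMb2, and how reads matching both were treated is not given either.

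Ciita (gene ID 12265, chr16:10480014-10528606, plus strand), the transactivator, was lowly expressed and showed the same high libraries. It stood at 2.06, 8.75, 2.07, 3.59 and 2.21 CPM in P2ry14-null, against 2.501, 2.33, 2.74, 3.05 and 3.69 CPM in WT libraries. The highest P2ry14-null libraries were 2 and 4, as for H2-Aa, H2-Ab1, H2-Eb1 and Cd74. Ciita had a log2 fold change of 0.39 ± 0.36 (SE, adjusted p = 0.999 by edgeR), and of -0.20 ± 0.18 (adjusted p = 1.00 by edgeR) without library 2. Dexi on the opposite strand shares 329 exon bases with Ciita in GENCODE and 0 in transcripts linked to RefSeq, and stood at 6.37 to 6.85 CPM in P2ry14-null and 6.24 to 7.40 CPM in WT libraries.

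**Figure D2:**
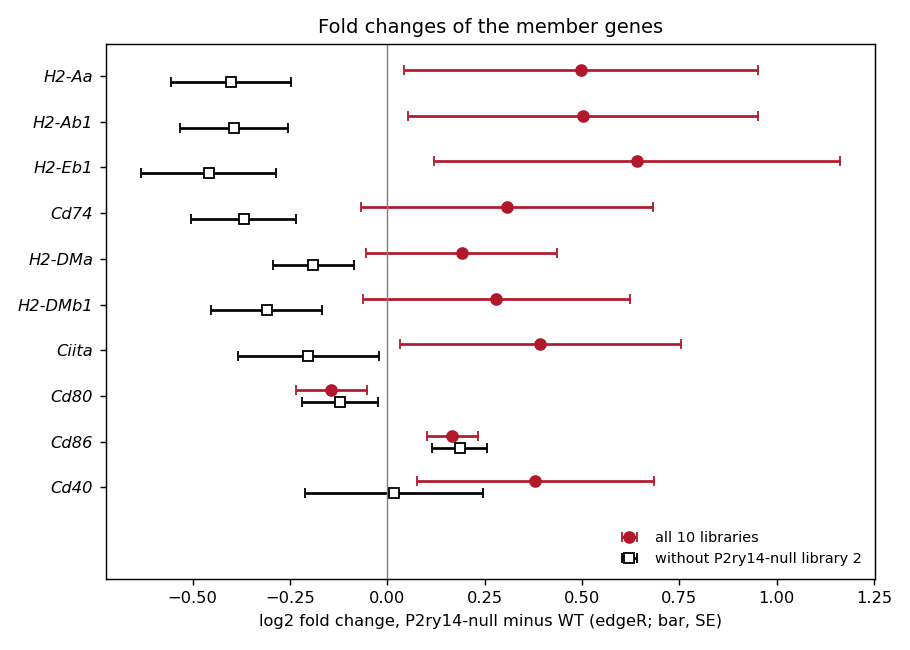
Log2 fold change of the 10 genes (P2ry14-null minus WT, edgeR; bars, SE) with all 10 libraries (filled red circles) and without P2ry14-null library 2 (open black squares). The 7 class II genes lie above 0 with that library and below 0 without it, while Cd80 and Cd86 keep their place.

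The co-stimulatory ligands Cd80 and Cd86 did not follow the class II genes. Cd80 (B7-1; gene ID 12519, chr16:38457431-38486933, plus strand) stood at 70.0, 70.7, 80.5, 84.2 and 70.4 CPM in P2ry14-null, against 88.5, 68.0, 81.4, 99.6 and 77.7 CPM in WT libraries. Cd86 (B7-2; gene ID 12524, chr16:36568956-36666077, minus strand) stood at 13.2, 12.9, 13.4, 14.6 and 13.8 CPM in P2ry14-null, against 12.6, 10.8, 12.6, 13.1 and 11.3 CPM in WT libraries. P2ry14-null library 2 lay inside the range of the other libraries for Cd80 and was the lowest of its group for Cd86. The Cd80 groups overlapped widely, and the Cd86 groups overlapped through WT library 4 and P2ry14-null library 2. The log2 fold change of Cd80 was -0.14 ± 0.09 (SE; edgeR adjusted p = 0.999), and that of Cd86 0.17 ± 0.06 (unadjusted p = 0.0225, edgeR adjusted p = 0.999). Without library 2 they were -0.12 ± 0.10 and 0.19 ± 0.07.

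Cd40 (gene ID 21939, chr2:165055608-165071654, plus strand) is a TNF receptor family member best known on B cells, dendritic cells and macrophages. It was the lowest of the 10 genes, with 36 to 271 reads per library. It stood at 0.534, 1.76, 0.591, 1.03 and 0.750 CPM in P2ry14-null, against 0.816, 0.410, 0.733, 0.870 and 0.791 CPM in WT libraries. Of the co-stimulation genes it alone was over 2-fold above the other P2ry14-null libraries in library 2 (2.62-fold over their median, against 0.938 for Cd80 and 0.947 for Cd86). Cd40 had a log2 fold change of 0.38 ± 0.30 (SE, adjusted p = 0.999 by edgeR), and of 0.02 ± 0.23 without library 2.

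Ratios within a library need no scaling and show which genes kept step. H2-Ab1 over H2-Aa was 0.803 ± 0.049 in P2ry14-null and 0.794 ± 0.031 in WT libraries (SD, n = 5 each), and over all 10 libraries its highest value was 1.17 times its lowest, although the levels themselves spanned 11.8 to 81.2 CPM for H2-Aa. H2-Eb1 over H2-Aa was 0.653 ± 0.094 in P2ry14-null and 0.649 ± 0.043 in WT libraries, and Cd74 over H2-Aa 3.28 ± 0.542 and 3.31 ± 0.196. The I-A chains thus kept nearly 1 ratio in every library, library 2 included, whereas H2-DMa over H2-Aa spanned 3.01-fold, with 0.151 in P2ry14-null library 2 as the lowest of the 10.

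Cd86 over Cd80 was 0.189, 0.182, 0.166, 0.173 and 0.197 in P2ry14-null, against 0.143, 0.159, 0.155, 0.132 and 0.145 in WT libraries. All 5 P2ry14-null values lay above all 5 WT values, which was so for none of the other 11 ratios computed. Those 11 all hold H2-Aa, except H2-DMb1 over H2-DMa. How often ratios of other gene pairs separate the groups was not tested. The mean log2 ratio differed by 0.31, with a two-sided exact permutation p of 0.0079, the smallest that 5 against 5 libraries allow. Adjusted by Benjamini-Hochberg over the 12 ratios, the exact p was 0.0952, and the ratio was singled out after its values were seen.

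**Figure D3:**
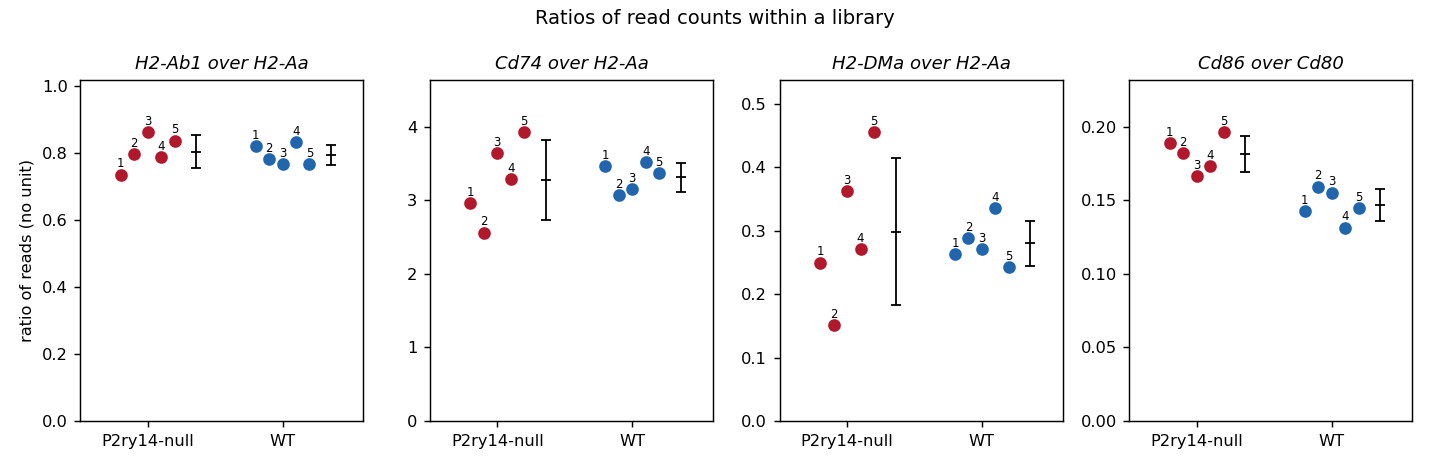
Ratios of read counts within a library (no unit) for 4 pairs of genes; points are libraries with their replicate number, P2ry14-null red and left, WT blue and right, and bars are mean ± SD of 5. H2-Ab1 over H2-Aa lies between 0.735 and 0.863 in all 10 libraries, and Cd86 over Cd80 lies at 0.166 to 0.197 in P2ry14-null and 0.132 to 0.159 in WT.

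Levels can be compared between genes only per length, as CPM per kilobase of exon, where the exons of transcripts linked to RefSeq were used. On that scale Cd80 and Cd74 led in WT eosinophils and did not differ beyond their spread: Cd80 averaged 44.2 ± 3.95 in P2ry14-null and 48.8 ± 6.97 in WT, and Cd74 58.8 ± 49.6 and 47.6 ± 8.10 CPM per kilobase. Both lay at rank 1383 and 1422 of 13039 tested genes with a length in WT. H2-Aa averaged 25.3 ± 26.3 in P2ry14-null and 17.99 ± 2.51 CPM per kilobase in WT, and overlapped H2-Ab1, next in order, at 18.7 ± 19.4 and 13.3 ± 1.91. The WT ranges of the following neighbours did not overlap: H2-Eb1 at 7.88 ± 1.07, Cd86 at 4.77 ± 0.39, H2-DMa at 3.39 ± 0.27, H2-DMb1 at 2.44 ± 0.32, Ciita at 0.428 ± 0.080 and Cd40 at 0.242 ± 0.061 CPM per kilobase. In P2ry14-null libraries, as means over 5 with library 2 included, the order was the same except that Cd74 came before Cd80. Without library 2 the P2ry14-null order was that of WT, with Cd80 at 44.8 and Cd74 at 36.9 CPM per kilobase, and H2-Aa averaged 13.6, H2-Ab1 10.1 and H2-Eb1 5.76 CPM per kilobase. With the exons of all GENCODE transcripts in place of those linked to RefSeq, Cd74 came before Cd80 in WT too, H2-Eb1 before H2-Ab1 and H2-Ab1 before H2-Aa, and H2-DMb1 before H2-DMa.

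**Figure D4:**
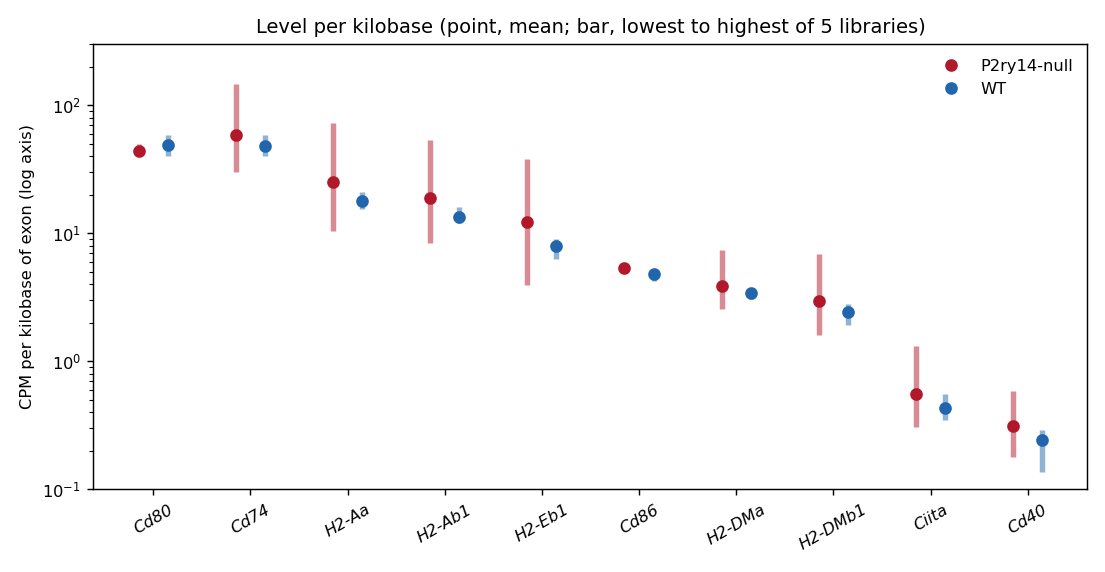
Level of the 10 genes as CPM per kilobase of exon on a log axis, ordered by the WT mean; points are means and bars run from the lowest to the highest of 5 libraries (P2ry14-null red, left; WT blue, right). In the P2ry14-null group Cd80 and Cd86 have short bars, and the class II bars of that group reach up to library 2.

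The genes also differed in how much they varied within a group. The SD of log2 CPM in the P2ry14-null group was 1.31 for H2-Eb1, 1.14 for H2-Aa, 1.12 for H2-Ab1 and 0.93 for Cd74, against a median of 0.081 over the 11140 genes at 1 CPM or more, and 0.069 for Cd86. Without library 2 the SD of H2-Aa among the remaining 4 was 0.39, higher than in 98.2% of those genes, whereas in WT it was 0.20, higher than in 80.3%. Class II genes were thus among the more variable genes of the P2ry14-null group with library 2 left out as well, and Cd86 was not, at 0.064, above 35.9% of genes. The other co-stimulation genes differed from Cd86. Cd40 was above 98.6% and Cd80 above 78.9% of genes there, and above 98.3% and 82.2% in WT.

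Other genes of the pathway were read from lists of related genes. Of 11 other genes of class II processing and turnover 0 passed the test in either direction (0.0128% of all tested genes were called higher and 0.0257% lower), with a median log2 fold change of 0.10, and -0.10 without library 2. The most abundant were the protease Ctsb, March1 and Ctss, and Ctsb stood at 118 to 234 CPM in P2ry14-null, with library 2 the highest, and 132 to 140 CPM in WT libraries. The cysteine protease Ctss, which trims the invariant chain, stood at 43.3 to 174 CPM in P2ry14-null and 59.3 to 72.2 CPM in WT libraries, with library 2 at 3.44-fold the median of the other P2ry14-null libraries. The ubiquitin ligase gene March1, whose product removes class II and Cd86 from the surface, stood at 70.2 to 83.5 CPM in P2ry14-null and 68.8 to 97.1 CPM in WT, and library 2 was the lowest of its group. The H2-DO chains parted in library 2: H2-Ob, the beta chain, was at 3.17-fold the median of the other P2ry14-null libraries, and H2-Oa, the alpha chain, at 0.915-fold.

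Of 16 regulators of class II, among them the RFX and NF-Y subunits that bind the X and Y boxes and the interferon gamma pathway upstream of Ciita, 0 passed the test, with 8 above and 8 below 0 and a median of -0.01. Rfx5, Rfxap, Rfxank, Nfya, Nfyb, Nfyc and Creb1 stood in library 2 at 0.926 to 0.988-fold the other P2ry14-null libraries. The most abundant were the myeloid factor Spi1 and the kinases Jak1 and Jak2, and Spi1 stood at 533 to 568 CPM in P2ry14-null and 530 to 602 CPM in WT libraries. Irf4 and Irf8, factors of B cells and dendritic cells, were the 2 that stood over 2-fold there, at 3.02 and 2.26-fold. At an unadjusted p under 0.05 there was 1 of the 16 on the higher side, where 1.46% of all tested genes were, and 1 on the lower side. The higher one was Rfx5, a subunit of the X box factor, at 16.9 to 19.7 CPM in P2ry14-null and 14.01 to 18.4 CPM in WT libraries (log2 fold change 0.19 ± 0.07, unadjusted p = 0.0229, edgeR adjusted p = 0.999). The lower one, the interferon-induced factor Irf1, stood at 153 to 255 CPM in P2ry14-null and 210 to 301 CPM in WT libraries (log2 fold change -0.36 ± 0.14, unadjusted p = 0.0205, edgeR adjusted p = 0.999).

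Of 14 other co-stimulatory and checkpoint ligands, 11 passed the low-count filter and 0 of these the test (median -0.04). At an unadjusted p under 0.05, 2 of the 11 were lower, Cd274 and Icam1, where 2.67% of all tested genes were lower at that level. Tnfsf4, Cd70 and Vtcn1 did not pass the filter, with at most 10 reads in a library. The highest by CPM were Cd24a, a glycoprotein of granulocytes, Vsir, the checkpoint protein VISTA, and the ICOS ligand Icosl, which stood at 118 to 124 CPM in P2ry14-null and 117 to 131 CPM in WT libraries. Of 10 genes of CD40 signalling 0 passed, with 8 below 0 (median -0.11) and 4 of those at an unadjusted p under 0.05 (Relb, Birc3, Traf5 and Nfkb2). The most abundant were the ubiquitin ligase gene Birc3, the NF-kappaB gene Nfkb2 and Traf3, and Birc3 stood at 296 to 357 CPM in P2ry14-null and 347 to 416 CPM in WT libraries. Relb, which partners Nfkb2, stood at 24.3 to 26.6 CPM in P2ry14-null and 27.2 to 36.5 CPM in WT (log2 -0.27 ± 0.07, edgeR adjusted p = 0.999). The Relb groups did not overlap, where 0.648% of all tested genes did not. Of 15 class I pathway genes 0 passed, with 14 below 0 (median -0.12) beside 7611 of all 15586, and 4 of those at an unadjusted p under 0.05 (H2-K1, H2-D1, Tap1 and Nlrc5). The most abundant were the heavy chains H2-D1 and H2-K1 and their light chain B2m. H2-K1 stood at 1468 to 1900 CPM in P2ry14-null and 1719 to 2138 CPM in WT. Without library 2 the medians of these 3 lists were -0.04, -0.10 and -0.12. Receptors on the T cell side were low: of 6 such genes 0 passed, with 5 above 0 (median 0.39, and 0.18 without library 2), and Cd4, Icos and Cd28, the most abundant, reached 1.252, 0.947 and 0.889 CPM in library 2 and at most 0.614, 0.441 and 0.452 CPM in WT.

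Markers of other cells moved with the class II genes in P2ry14-null library 2. Of 8 alveolar type II cell markers 6 were at least 2-fold above the median of the other P2ry14-null libraries there, with Sftpc at 19.9 CPM against 1.17 to 3.06 CPM in those 4 and 1.46 to 2.81 CPM in WT. Of 12 monocyte and macrophage markers 7 were, with C1qc at 11.2 CPM against 1.06 to 1.82 CPM in those 4 and 1.23 to 2.06 CPM in WT. Of 10 tested alveolar macrophage markers 8 were, of 10 B cell markers 7, of 12 dendritic cell markers 6 and of 6 T cell markers 4, against 0 of 10 eosinophil markers. Of all 15586 tested genes 670 were, as was 1 of 5 neutrophil markers and 0 of 6 mast cell and basophil markers. Mast cell and basophil markers had 6 of 6 log2 fold changes below 0 with all libraries, beside 7611 of all 15586. Their summed level was 35.4 to 50.0 CPM in P2ry14-null and 51.7 to 70.9 CPM in WT, most of it Hdc, the histidine decarboxylase gene. Of the 6 markers 0 passed the test. At an unadjusted p under 0.05 by edgeR, 2 of the 6 were lower, Hdc and Cpa3, where 2.67% of all tested genes were. Summed CPM of the whole list in library 2, in the other 4 P2ry14-null libraries and in WT was 301, 251 to 258 and 224 to 280 for alveolar type II cells, and 1213, 701 to 880 and 745 to 868 for monocytes and macrophages. It was 2630, 1169 to 1370 and 1223 to 1505 for alveolar macrophages, 547, 521 to 559 and 543 to 597 for B cells, and 68.7, 50.8 to 59.3 and 54.6 to 68.6 for dendritic cells. Neutrophil markers summed to 3531, 3905 to 5275 and 3550 to 4476 CPM, in the same order of libraries. The most abundant markers by mean CPM were Napsa, Abca3 and Sftpc for alveolar type II cells, Csf1r, Lyz2 and Apoe for monocytes and macrophages, Olr1, Chil3 and Car4 for alveolar macrophages, and Cd37, Cd79a and Cd79b for B cells. They were Batf3, Itgae and Clec9a for dendritic cells, Lck, Cd3d and Cd4 for T cells, Retnlg, S100a9 and S100a8 for neutrophils, Hdc, Kit and Ms4a2 for mast cells and basophils, and Alox15, Ccr3 and Siglecf for eosinophils. Several listed genes, such as Csf1r, Car4, Olr1, Napsa and Cd37, stood far above the rest of their lists in all 10 libraries and make up much of these sums. The defining markers Sftpc and C1qc were above 0 in all 10 libraries. The part of these cells in the class II values was not tested.

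**Figure D5:**
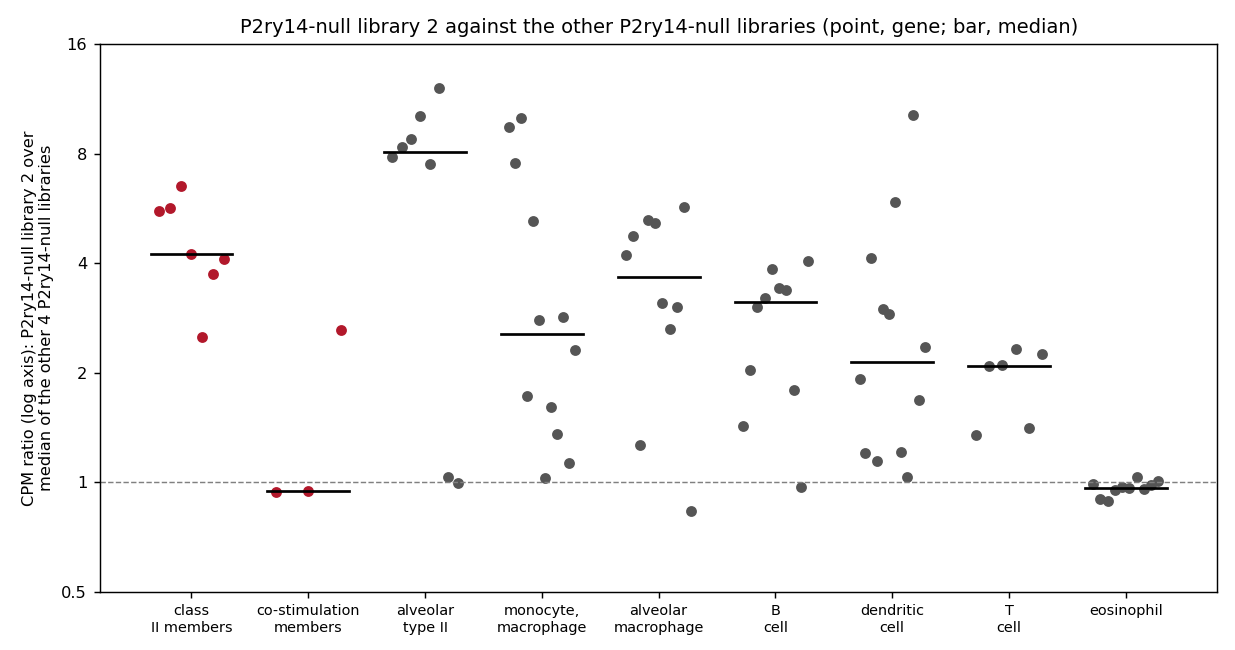
CPM of P2ry14-null library 2 over the median of the other 4 P2ry14-null libraries, on a log axis; each point is a gene, each bar the median of its list, with the 10 member genes in red and markers of 7 cell types in grey. The 7 class II genes lie between 2.5 and 6.52, Cd80 and Cd86 lie near 1 with the 10 eosinophil markers, and Sftpc lies at 7.80.

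Without library 2, most genes of class II and of several marker lists had log2 fold changes below 0. The 7 class II genes then had 7 log2 fold changes below 0, with a median of -0.37, and 5 of them had an unadjusted p under 0.05 (H2-Aa, H2-Ab1, H2-Eb1, Cd74 and H2-DMb1), where 2.99% of all genes did so on the lower side. With Cd86, on the higher side, this made 6 of the 10 genes, beside 4.08% of all genes. None passed after adjustment over all genes, where 3 of 15578 did (0.0193%). The class II genes moved together from library to library, H2-DMa and Ciita less closely. The p-values of the 7 genes are therefore not separate results. The library left out was also the one in which these 7 genes stood highest. B cell markers had 10 of 10 below 0 with a median of -0.39, dendritic cell markers 9 of 12 with -0.20 and alveolar macrophage markers 8 of 10 with -0.25, beside 7871 of 15532 genes. Monocyte and macrophage markers had 9 of 12 below 0 with a median of -0.14, alveolar type II markers 5 of 8 with -0.04 and T cell markers 2 of 6 with 0.10. The lowest median of the marker lists was -0.49, of mast cell and basophil markers, with 6 of 6 below 0, while neutrophil markers had 4 of 5 above 0 and a median of 0.19. The B cell receptor component Cd79b then stood at 2.85 to 4.39 CPM in P2ry14-null and 3.58 to 5.43 CPM in WT libraries. Their part in the class II difference was not tested.

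Genes whose profile over the 10 libraries was most like that of H2-Aa, H2-Ab1, H2-Eb1 and Cd74 were named by the root mean square difference of centred log2 CPM, over 11140 genes. The nearest was Cxcl16, a membrane-bound chemokine of antigen-presenting cells, at 0.131, and the 10 nearest also held Rab3il1, Mrc1, Shtn1, Axl, Gpnmb, Sh3pxd2b, Fabp5 and Tfec, at 0.205 to 0.236, where the median gene was at 0.732. Mrc1, the macrophage mannose receptor, stood in library 2 at 5.15-fold and Gpnmb, a macrophage glycoprotein, at 6.57-fold the median of the other P2ry14-null libraries. Without library 2, only Cxcl16 of these 10 was still among the 10 nearest, at 0.136, now with Ctss, Cd79b, Clec4n, Egr3, Prg3, Traf1, Ly6g5b, Ramp1 and Atp1b1 (median gene 0.338). Among the class II genes themselves, Ciita took place 31 of 11140 with all libraries and 364 without library 2, and H2-DMa 74 and 338. Cd80 took place 9218 with all libraries and 2792 without library 2, and Cd86 took place 7895 and 9356.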

How the data were processed

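Whole-number read counts per gene were deposited by the authors for all 10 libraries in 1 table with gene IDs and mm10 coordinates. The build mm10, STAR 2.5, featureCounts 1.5.0-p1 from Subread, and DESeq2 are named, per the submitters' processing notes. For the annotation, the strand setting and multi-mapping reads, the settings were not given in the sources used here. Groups and replicate numbers came from sample titles, which equalled the column names.

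The counts were fitted with genotype as the sole term in edgeR 4.0.16 (R 4.3.3), after filterByExpr and TMM scaling. The quasi-likelihood test was adjusted by Benjamini-Hochberg over 15586 genes (threshold 0.05), after being tested on simulated data. Log2 CPM used a prior count of 2. The SE is the log2 fold change over the square root of F. A count of 0 allows up to 3 reads, 0.0162 to 0.0447 CPM, for counting error only. No pair of libraries within a group agreed within sampling noise (smallest chi-square per gene 24.3). Exons came from GENCODE vM21 on GRCm38.

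Members and lists were chosen with earlier results of these data known. The 10 members are named, then genes past the threshold or up to 3 with the highest CPM per list, and the 10 nearest in profile. Other genes, such as the RFX and NF-Y genes, Traf5, Cd274, Icam1, Tap1, Nlrc5, Irf4, Irf8, Relb, Irf1, Ctss, March1, H2-Oa, H2-Ob, H2-K1, Sftpc, C1qc and Cd79b, were named after their values were seen. Some genes that these rules name are not reported here. Alternatives were DESeq2 1.42.0, RLE and upper quartile factors, no filter, at least 1 CPM in 5 libraries, robust dispersion, a replicate block and each library left out.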

Additional observations from a re-analysis of the deposited data

Results flagged for a closer look

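In groups of 5, a sample was marked where its gap to the nearest other exceeded 0.71 of the group's range. Chance marks about 1 in 20 groups. Of 52 groups looked at (10 member genes, P2ry14 and the summed CPM of 15 gene lists, in both genotypes) 12 were marked, and the sample was P2ry14-null library 2 in 12 of the 12. Of the 10 member genes 7 were marked in P2ry14-null and 0 in WT. The groups share libraries, genes that moved together and in part list members, so the 12 marks are not separate results.

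P2ry14-null library 2 held 81.2 CPM of H2-Aa, against 11.8 to 20.5 CPM in the other 4 libraries of its group. It held 64.6 CPM of H2-Ab1 against 10.2 to 16.1, and 63.6 CPM of H2-Eb1 against 6.62 to 12.3. Cd74 was at 208 CPM there against 42.9 to 67.5. For the low genes the values were 12.3 CPM of H2-DMa against 4.25 to 5.56, 9.61 CPM of H2-DMb1 against 2.26 to 3.61, and 8.75 CPM of Ciita against 2.06 to 3.59. Cd40, at 1.76 CPM against 0.534 to 1.03, was not marked, nor were Cd80 and Cd86.

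The same library was marked for the summed CPM of the other class II pathway genes (708 against 387 to 433), the T cell partner genes Cd28, Ctla4, Cd40lg, Icos, Cd4 and Lag3 (4.68 against 1.94 to 2.56), alveolar macrophage markers (2630 against 1169 to 1370), alveolar type II markers (301 against 251 to 258) and T cell markers (6.11 against 2.82 to 3.57).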

How the results depend on the processing

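None of the 10 genes passed the threshold in any of 17 alternatives (smallest adjusted p 0.486, Cd86 without WT library 3), and the sign turned in 8 of 169 values. Without P2ry14-null library 2, log2 fold changes were -0.40 for H2-Aa, -0.39 for H2-Ab1, -0.46 for H2-Eb1, -0.37 for Cd74, -0.19 for H2-DMa, -0.31 for H2-DMb1 and -0.20 for Ciita, and the median over the 10 genes was -0.26. With another library left out these 7 genes reached at most 0.70, 0.70, 0.87, 0.48, 0.31, 0.44 and 0.56, in the same order, and the median ran from 0.25 to 0.50, so over all it ran from -0.26 to 0.50. Libraries with the same number showed no shared deviation (correlations of -0.093 to 0.094). With the replicate number as a block Cd74 was at -0.0067, the median was 0.031, and 6 genes were called, with 0 of the 10. Genes called over the whole table numbered 19 in DESeq2, which gave no p for H2-Aa, H2-Ab1, H2-Eb1 and Cd74, and 3 to 5 with single libraries left out. Cd40 (0.02 without library 2) was not tested at the 1 CPM filter. The log2 Cd86 to Cd80 ratio difference ran from 0.27 to 0.34, an alternative added after seeing the data, as was the exon length of all GENCODE transcripts. P2ry14 kept its call throughout. Cd40 had 36 to 271 reads per library and Ciita 139 to 1349. Without P2ry14-null library 2 the SE went from 0.36 to 0.18 for Ciita and from 0.30 to 0.23 for Cd40. The spread between libraries therefore limits the precision of both genes, and depth is not the sole limit.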
